A study of Caenorhabditis elegans with 34 samples.

Results

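The glutathione S-transferases described here are the 44 genes, of 20222 worm genes counted, whose symbol is gst- followed by a number. These enzymes join glutathione, a small thiol peptide, to reactive compounds such as products of lipid peroxidation and foreign chemicals, after which the conjugates are pumped out of the cell or broken down. In *Caenorhabditis elegans* the family is large, and several members are switched on by SKN-1, the worm relative of the mammalian Nrf factors, above all in the intestine. The best known is gst-4, whose promoter is a standard reporter of oxidative stress.

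RNA was sequenced from whole, unsorted populations carrying spe-9 (hc88), a temperature-sensitive mutation of a sperm gene that keeps eggs from being fertilized at 25 °C, so no wild type was compared. The age groups were days 1 to 12, all begun from synchronized L1 larvae put on OP50 bacteria, and all groups shared the genotype and the temperature. A sample was 1 plate of pooled animals, with 3 samples on 10 of the days and 2 on days 8 and 12, 34 in all. Day 1 was a single day after plating, when animals were still developing, so it was set only against day 2, and age was followed over the 31 samples of days 2 to 12.

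Levels are given as CPM, the count of a gene divided by the TMM-scaled total of its sample and multiplied by 1000000. Levels of different genes are compared only per kilobase of exon. Each sample had between 19202058 and 27587987 counts. A gene was called detected on days 2 to 12 if 75% or more of those samples had 5 counts or more. Adjusted p-values are those of edgeR's quasi-likelihood test over all genes tested, with a threshold of 0.01. By the design text the culture was repeated 3 times, the labels do not tie a replicate number to a round, and they name no batch. The study's own model held a term for sequencing batch, which the fits here leave out because the batches of these samples are not in the labels, and its part in the results was not tested.

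Some libraries stood apart. On days 2 to 12 the level of a gene relative to its own mean depended on exon length, and this slope on length, in log2 level per doubling of length, was -0.229 to 0.0614 on days 2 to 3, -0.467 to 0.103 on days 5 to 7 and 0.127 to 0.204 on days 11 to 12. The lowest slopes were -0.51 in day 4 replicate 2 and -0.467 in day 5 replicate 3. Detected gst genes had a median exon length of 745 bases, against 1371 bases for the 13825 detected genes with a known length. Counts of members called over days 2 to 12 are therefore also given with each sample's trend on length removed, and without those 2 libraries.

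Of the 44 gst genes, 33 were detected on days 2 to 12. The other 11 were gst-2, gst-8, gst-14, gst-17, gst-18, gst-19, gst-25, gst-32, gst-34, gst-37 and gst-41, none of which had more than 29 counts in any sample. They were left out of the tests over days 2 to 12, and of these genes gst-2 and gst-32 entered the test of day 2 against day 1, where neither passed it. With no filter on low counts gst-19 and gst-32 were called falling with adult age. Among the detected genes, 16 averaged 100 or more counts in a sample and 17 had fewer.

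The family is grouped on the genome. Chromosome II holds 25 of the 44 genes, and 25 genes lie in 4 clusters whose neighbouring members are less than 20 kb apart (WBcel235, Ensembl release 115). Reads of close copies may be divided between neighbours, since sequence likeness between members was not measured. The clusters are chrII:4879891-4893573 with 4 genes including gst-7, chrII:13608154-13630887 with 9 including gst-20 and gst-24, chrII:15163817-15185389 with 9 including gst-26 and gst-27, and chrIV:10139380-10143099 with gst-3, gst-2 and gst-4. Among overlapping coding genes, gst-17 and gst-18 share 351 exonic bases on the same strand, gst-36 shares 93 with scav-5 on the opposite strand and gst-4 shares 65 with dhs-12 on the same strand. Whether the counting used strand is not given in the sources used here, so reads in these stretches cannot be assigned with certainty.

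The summed level of all 44 gst genes was highest on day 1 and lowest on day 10. It averaged 1863 ± 256 CPM on day 1, 1057 ± 80.5 on day 2, 1158 ± 145 on day 3, 865 ± 118.7 on day 5, 508 ± 57.6 on day 7 and 413 ± 10.4 on day 10 (SD, n = 3 each). On day 12 it averaged 441 (n = 2). The make-up of this sum also differed between ages: gst-1 and gst-7 together took 60.03% ± 2.77 of it on day 2, against 16.8% ± 1.98 on day 1 (SD, n = 3 each), and between 67.6% and 73.6% as a daily mean from day 3 to day 12. Without these 2 genes the sum averaged 424 ± 58.3 on day 2, against 1547 ± 188 on day 1.

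**Figure D1:**
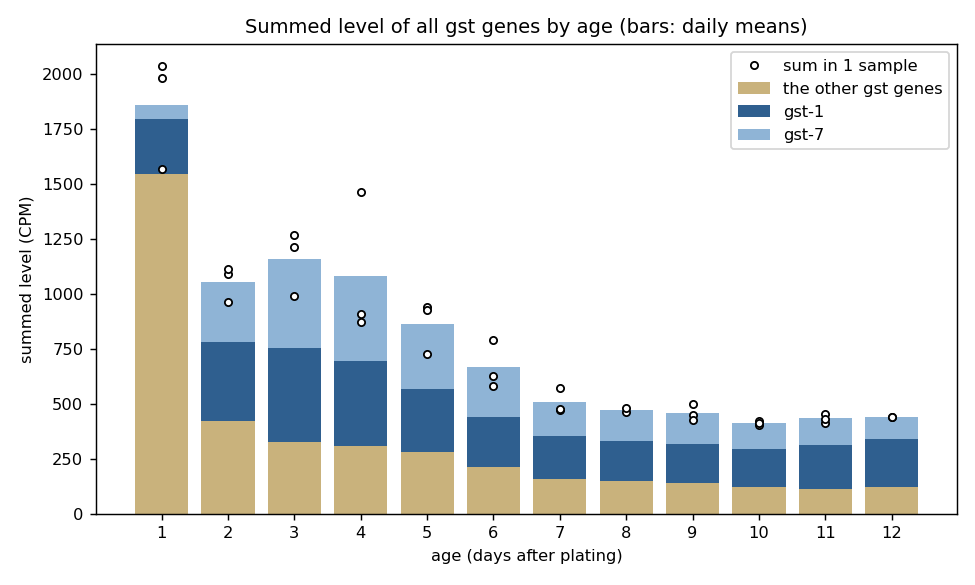
Summed level of the 44 gst genes (CPM) by age in days. Bars show daily means split into gst-1, gst-7 and the other members, and circles show single samples: the sum lay at 1569 to 2037 on day 1 and at 415 to 455 on days 11 to 12, and gst-1 with gst-7 made up most of each bar from day 2 onward.

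Per kilobase of exon, gst-1 was the most abundant member on days 2 to 12, with a mean of 350 CPM per kilobase, followed by gst-7 with 296. The next were gst-36 with 34.5, gst-10 with 27.5 and gst-5 with 25.0. gst-1 and gst-10 are pi-class enzymes, and gst-4, gst-5 and gst-7 belong to the sigma class. On days 3 to 6 the levels of gst-1 and gst-7 lay within their spread. With exon lengths of 749 bases for gst-1 and 745 for gst-7, the daily mean was 430 ± 53.0 CPM for gst-1 and 402 ± 61.8 for gst-7 on day 3, and 288 ± 19.05 for gst-1 and 296 ± 48.7 for gst-7 on day 5 (SD, n = 3 each).

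Day 2 was compared with day 1 to ask how the family differs between the youngest adults and developing animals. Most gst genes were lower on day 2. Of the 35 members tested, 20 were lower and 5 were higher, against 35.7% lower and 35.1% higher among all 14911 genes tested. The median member changed by -1.30 on the log2 scale and the median gene by -0.10. Scaled by library size alone, the median gene changed by -0.23 and the member counts were 20 lower and 3 higher, against 5614 lower and 4894 higher of all genes. The filter asked for 5 counts in 3 of the 6 samples. Day 1 alone carried gst-3, gst-11, gst-23, gst-31 and gst-35 past it, of which 4 were called lower, and day 2 alone carried gst-30, gst-32 and gst-44, of which 2 were called higher. Among the 26 members with 5 counts in every sample of both days, a split chosen after seeing the data, 16 were lower and 3 higher, against 35.1% lower and 35% higher of the 11230 genes of that kind.

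Among the members with high counts on day 1, gst-35 had 0.161, 0.243 and 0.410 CPM on day 2, against 27.4, 32.6 and 7.90 on day 1. All 3 day 2 samples were below all day 1 samples, although day 2 rested on 3, 5 and 8 counts. gst-11 had 0.643, 0.486 and 0.205 CPM on day 2, against 6.89, 7.96 and 6.01 on day 1. For gst-35 and gst-11 the fold and p are not given, because day 1 alone carried them past the filter. Of all genes that day 1 alone carried past it, 78.8% were called lower and 0% higher. gst-40, which had 5 counts or more in every sample of both days, was 14.0-fold lower on day 2 (log2 change -3.80 ± 0.39 SE, adjusted p = 6.74e-05).

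gst-10, which in worms conjugates the lipid peroxidation product 4-hydroxynonenal, was among the most abundant members of day 1. It stood at 60.3, 44.7 and 67.7 CPM on day 2, against 557, 566 and 300 on day 1, and the groups did not overlap. This was a 7.96-fold lower level (log2 change -2.99 ± 0.28 SE, adjusted p = 4.82e-05). gst-22 was 9.98-fold lower, with 2.25, 2.04 and 1.95 on day 2, against 21.6, 18.5 and 24.4 on day 1 (log2 change -3.32 ± 0.21 SE, adjusted p = 7.64e-06).

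The zeta-class genes fell as well. gst-42, the maleylacetoacetate isomerase of tyrosine breakdown, had 24.8, 22.1 and 27.2 CPM on day 2, against 112, 112 and 103 on day 1. This 4.28-fold lower level had the smallest standard error among the members tested (log2 change -2.10 ± 0.12 SE, adjusted p = 4.26e-06). gst-43 was 2.06-fold lower (log2 change -1.05 ± 0.17 SE, adjusted p = 0.000862). The neighbouring genes gst-26 and gst-27 fell 3.90-fold and 3.53-fold. gst-4 did not pass the test: its levels were 27.9, 25.2 and 36.9 on day 2 and 44.1, 65.2 and 31.9 on day 1, and these ranges overlap (log2 change -0.60 ± 0.27 SE, adjusted p = 0.0737).

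The 5 members that were higher on day 2 were gst-1, gst-7, gst-9, gst-30 and gst-44. gst-7 had 297, 251 and 273 CPM on day 2, against 68.3, 98.0 and 33.4 on day 1, all day 2 samples being above all day 1 samples. It was 4.26-fold higher (log2 change 2.09 ± 0.35 SE, adjusted p = 0.000991). gst-9, its neighbour in the same cluster, rose by 1.47 on the log2 scale (± 0.38 SE, adjusted p = 0.00832), whereas gst-6 of that cluster was 6.88-fold lower (adjusted p = 5.77e-05).

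gst-1 had 367, 350 and 362 CPM on day 2, against 253, 289 and 205 on day 1 (log2 change 0.58 ± 0.15 SE, adjusted p = 0.00768). gst-44, of the omega class, had 90, 93 and 98 counts on day 2, against 1, 5 and 3 on day 1. gst-30 had 72, 86 and 61 counts on day 2, against 0, 4 and 0 on day 1. For gst-44 and gst-30 the fold and p are not given, because day 1 was close to 0 and day 2 alone carried them past the filter. Of all genes that day 2 alone carried past it, 77.8% were called higher and 0% lower. Calls of higher members were fewer in some, not all, of the fits with 1 sample left out: 3 without day 1 replicate 1 and 2 without any 1 of the day 2 replicates, where gst-7 and gst-44 were the 2 called each time.

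**Figure D2:**
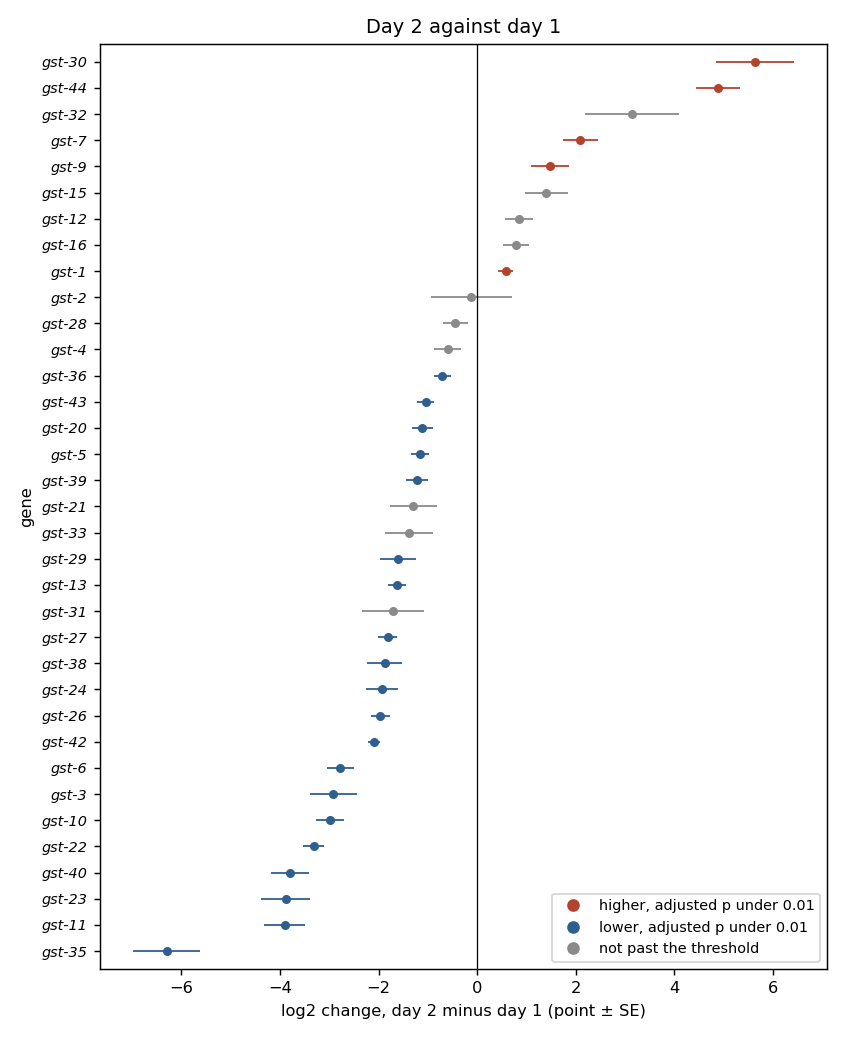
Log2 change of the 35 tested gst genes, day 2 minus day 1, as the fitted value ± SE. Red points are higher and blue points lower at an adjusted p under 0.01, grey points are not past it: 20 genes lie on the lower side with a call, the smallest change being -0.71 for gst-36, and 5 on the higher side. Genes carried past the filter by a single day, among them gst-35, gst-11, gst-30 and gst-44, are included.

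Levels of tissue markers also differed between day 1 and day 2. Of the 7 intestine markers tested, 5 were lower on day 2 and none higher, and their summed level was 660 to 862 CPM on day 2, against 3077 to 4067 on day 1. None of these markers was at 0 in any sample. All 6 oocyte and germline markers were higher, with sums of 4932 to 5509 on day 2, against 29.4 to 60.2 on day 1. Of the other lists, 3 of 6 hypodermis markers were lower and 1 higher, 3 of 5 neuron markers were lower and 1 higher, and 1 of 4 muscle markers was lower and none higher. The 3 embryo markers tested, end-3, tbx-37 and tbx-38, were called higher, but they had 0 counts on day 1. Day 2 alone carried them past the filter, so they could not have been called lower. end-1 and med-2, with means of 6.67 and 9 counts on day 1 against 1.33 and 1 on day 2, were not tested. The cuticle collagen genes rol-6 and dpy-7 were among the lower hypodermis markers, with means of 0 and 3 counts on day 2. Day 1, with means of 36751 and 5370 counts, carried them past the filter, so they could hardly have been called higher. The other lower hypodermis marker was lin-26 (log2 change -0.51 ± 0.14 SE, adjusted p = 0.00922). The part of these markers in the gst result was not tested, and in whole animals fewer cells of a type and less RNA per cell cannot be told apart.

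Over days 2 to 12 the question was how the family follows adult age. The course of each gene was fitted as a third-degree polynomial of age, and its linear coefficient is given in log2 per day. Age changed 30 of the 33 detected members, against 80.3% of all 13865 detected genes, so that share is near the background. The direction was mostly down. With age 23 members fell and 5 rose, against 33.9% falling and 36.9% rising among all detected genes. The median coefficient was -0.14 log2 per day for members and 0.01 for all genes.

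These counts moved with the scaling, among members and among all genes. With library size alone the median gene rose by 0.05 log2 per day. In that fit 17 members fell and 9 rose, against 3035 falling and 7047 rising of all genes. With the length trend removed 19 members fell and 9 rose, against 4832 and 4696 of all genes. Without the 2 libraries that stood apart 21 members fell and 5 rose, against 4848 and 5371 of all genes. In each of these fits more members fell than rose. Of the 16 members with at least 100 counts, 13 fell and none passed the test for a rise in the TMM fit, whereas gst-24 and gst-43 were called rising with library-size scaling and with the length trend removed.

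The 4 steepest falls among the members with at least 100 counts were those of gst-26, gst-10, gst-27 and gst-4. gst-26 fell by 0.50 log2 per day (± 0.04 SE, adjusted p = 2.54e-12). Its level was between 15.5 and 47.7 CPM with a median of 25.5 on days 2 to 3, between 1.70 and 18.7 with a median of 5.16 on days 5 to 7, and 2.71, 0.947, 0.817, 1.76 and 0.686 in the samples of days 11 to 12. The mean of days 11 to 12 was thus 20.7 times lower than that of days 2 to 3, and these samples did not overlap.

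gst-27 lies beside gst-26 on the same strand, and its course was the most alike of any pair of members with at least 100 counts. Pearson's r between them over the 31 samples was 0.99 on log2 levels, as a description of libraries that share depth and age. gst-27 fell by 0.43 log2 per day (± 0.03 SE, adjusted p = 6.53e-13) and averaged 3.57 CPM on days 11 to 12, against 49.2 on days 2 to 3. Likeness was not confined to neighbours, since r was 0.97 for gst-10 and gst-27 and 0.97 for gst-13 and gst-42, pairs that share no cluster.

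gst-10 fell by 0.48 log2 per day (± 0.03 SE, adjusted p = 7.06e-14). It had 36.1 to 67.7 CPM with a median of 44.8 on days 2 to 3, 4.10 to 26.9 with a median of 12.8 on days 5 to 7, and 4.45, 2.41, 3.22, 4.32 and 2.26 in the samples of days 11 to 12. The samples of days 11 to 12 averaged 14.9 times less than those of days 2 to 3. The fall continued the one from day 1, when its mean was above those of all adult days.

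gst-4 fell by 0.34 log2 per day (± 0.02 SE, adjusted p = 6.59e-14). Its daily mean was 30.0 ± 6.15 CPM on day 2, 14.1 ± 6.57 on day 4, 6.70 ± 1.67 on day 6, 4.43 ± 1.38 on day 7 and 3.32 ± 1.25 on day 11 (SD, n = 3 each). Most of the decline came before day 7, and its quadratic coefficient was past the threshold (adjusted p = 0.000359). Of the zeta class, gst-42 fell by 0.27 log2 per day (± 0.02 SE, adjusted p = 2.27e-14).

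Of the 5 members highest per kilobase, gst-10 was among the steepest, and the other 4 fell less steeply. gst-7 fell by 0.20 log2 per day (± 0.02 SE, adjusted p = 2.56e-12). gst-1 fell by 0.12 log2 per day (± 0.01 SE, adjusted p = 9.44e-12), and by 0.08 when the scaling was by library size alone or the length trend was removed. Both were highest on day 3. gst-36 fell by 0.23 log2 per day (± 0.02 SE, adjusted p = 5.29e-13), and gst-5, by 0.11 log2 per day (± 0.02 SE, adjusted p = 4.1e-06).

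**Figure D3:**
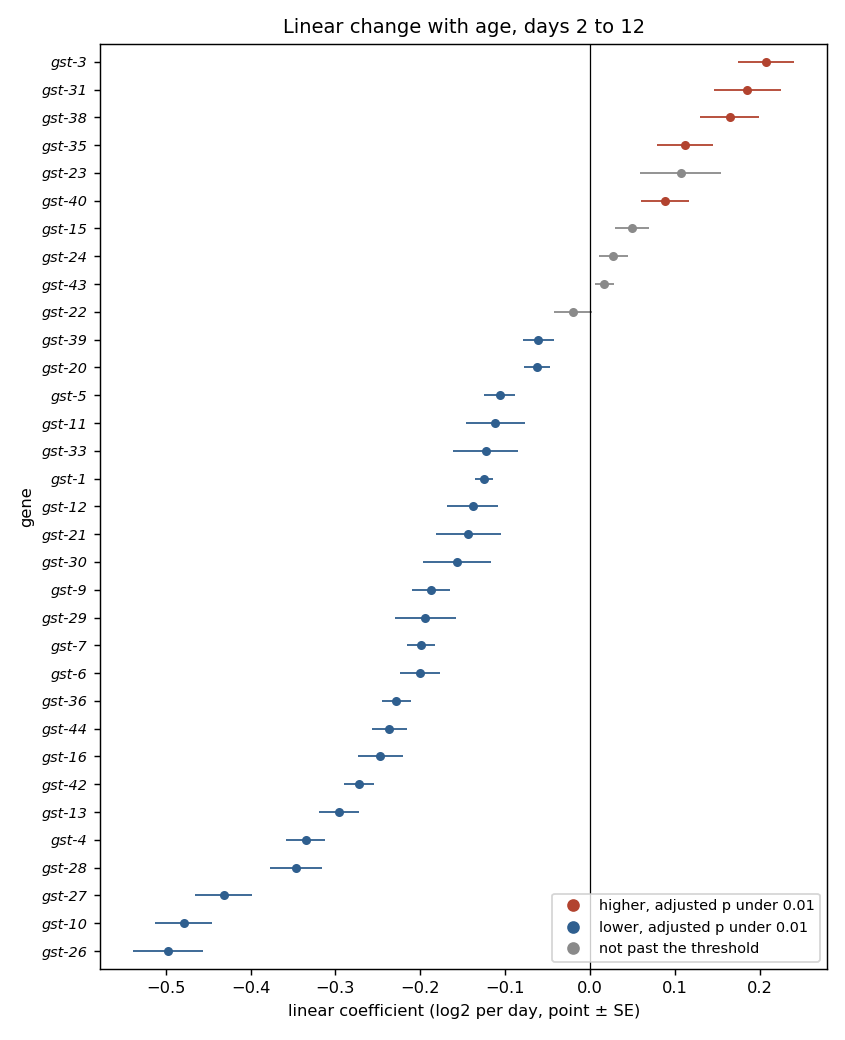
Linear coefficient of age over days 2 to 12 for the 33 detected gst genes, in log2 per day, as the fitted value ± SE. Blue points fell (23 genes, down to -0.50 for gst-26) and red points rose (5 genes, up to 0.21 for gst-3) at an adjusted p under 0.01; grey points are not past it.

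The 5 members that rose were gst-3, gst-31, gst-35, gst-38 and gst-40, each with a mean under 100 counts. gst-3 rose most steeply, by 0.21 log2 per day (± 0.03 SE, adjusted p = 1.41e-06). Its level was 1.101, 1.33, 1.497, 0.766 and 2.42 CPM on days 11 to 12, against 0.194 to 0.564 on days 2 to 3, and these samples did not overlap. The samples of days 2 to 3 rested on 4 to 11 counts, and on day 1 the level was 1.94 to 2.92 CPM. gst-3 lies in the same cluster as gst-4, which fell.

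gst-38 rose by 0.16 log2 per day (± 0.03 SE, adjusted p = 8.63e-05). It had 2.25, 2.98, 3.63, 2.43 and 3.79 CPM on days 11 to 12, against 0.690 to 3.06 with a median of 1.09 on days 2 to 3. On day 1 gst-38 had 6.97 to 9.24 CPM and gst-40 had 6.53 to 9.46, above all their adult samples. gst-35, which stood far higher on day 1, rose by 0.11 log2 per day (± 0.03 SE, adjusted p = 0.00325) but stayed below its day 1 samples on every later day. The count of rising members was 3 without day 2, when gst-35 and gst-40 were no longer called, and 3 without replicate 3, when gst-35 and gst-38 were not.

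The linear test was missed by 3 members that passed for no coefficient, gst-15, gst-23 and gst-43, and by 2 that changed in shape only, gst-22 and gst-24. The linear coefficient of gst-24 depended on the fit, being 0.03 log2 per day in the TMM fit (adjusted p = 0.147), 0.07 with library-size scaling (adjusted p = 0.000796) and -0.09 without day 2 (adjusted p = 6.54e-05). gst-43, the other zeta-class gene, kept a daily mean between 13.5 and 17.0 CPM from day 2 to day 12. Its coefficient was 0.02 log2 per day (± 0.01 SE, adjusted p = 0.167), but it was called rising with library-size scaling (0.06, adjusted p = 0.000197) and with the length trend removed (0.06, adjusted p = 1.7e-05).

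Within a cluster, members took different courses. In the chrII:15163817-15185389 cluster, 5 members fell, 2 rose (gst-31 and gst-35) and 2 were not detected. In the chrII:13608154-13630887 cluster, 3 fell, gst-24 changed in shape only, gst-15 did not pass the test and 4 were not detected. In the chrII:4879891-4893573 cluster, 3 fell and gst-8 was not detected. Of the 19 members that lie alone, 11 fell and 2 rose.

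**Figure D4:**
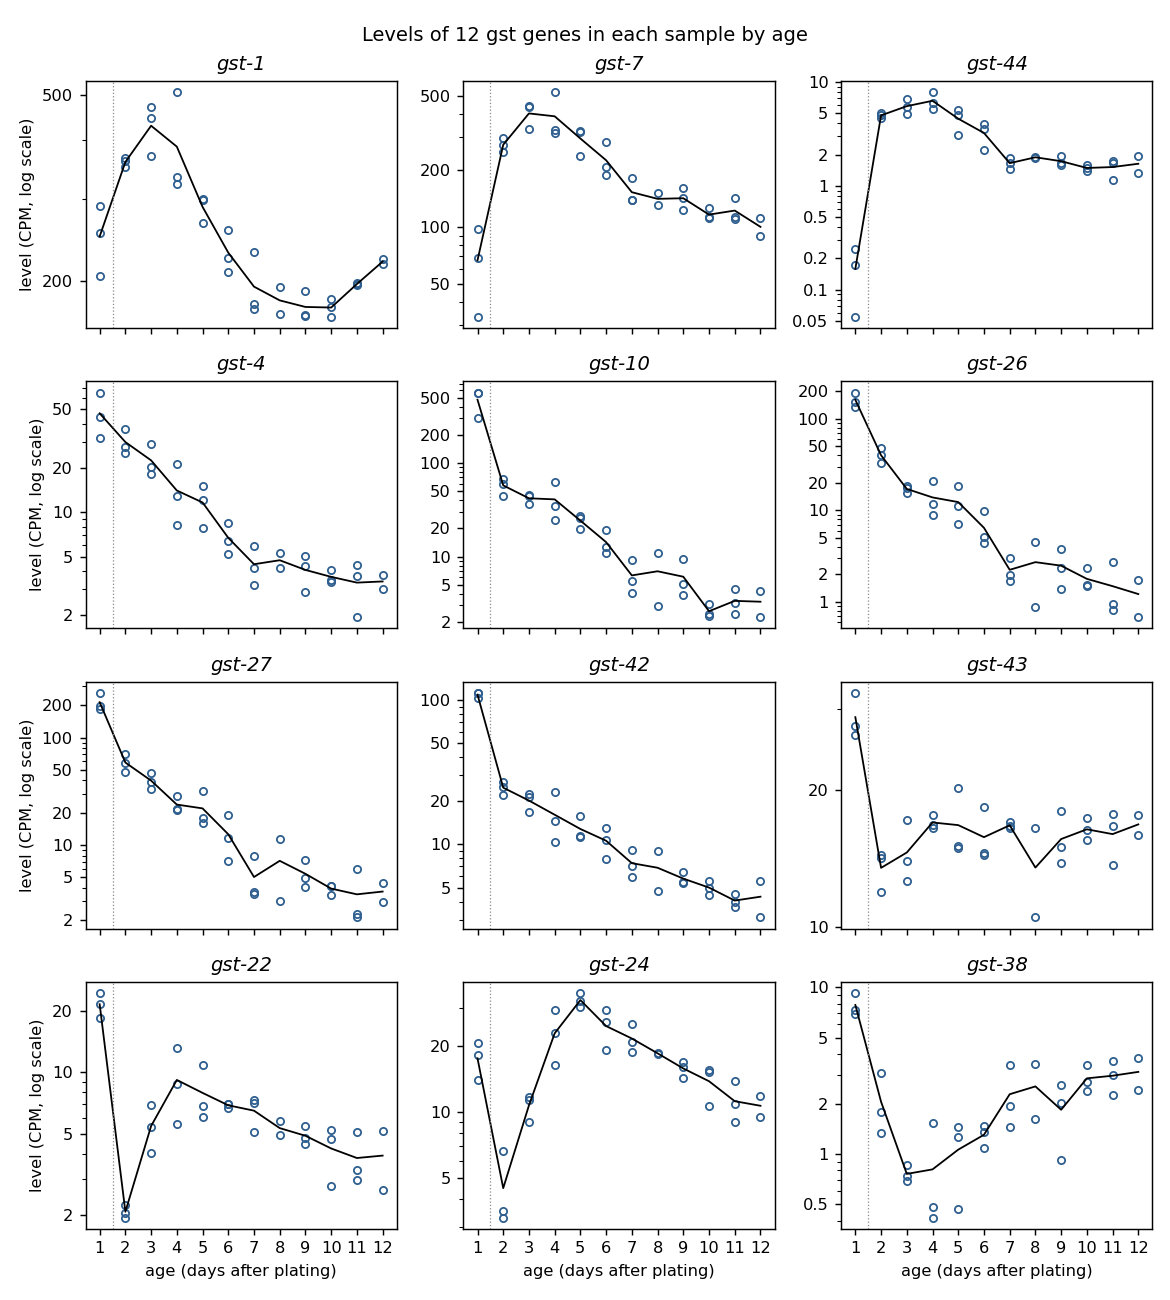
Levels of 12 gst genes (CPM, log scale) against age in days, with a circle for each sample and a line through the daily means; the dotted line separates day 1. gst-4, gst-10, gst-26, gst-27 and gst-42 fall through adult life, gst-24 peaks on day 5 with a mean of 32.6, gst-43 stays between daily means of 13.5 and 17.0 after day 1, and gst-38 has its adult peak on day 12.

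The adult course was then divided into an early step, days 5 to 7 against days 2 to 3, and a late step, days 11 to 12 against days 5 to 7. In the early step 14 members were lower and 5 higher, against 24% lower and 26% higher among all detected genes. The median member changed by -0.56 on the log2 scale and the median gene by 0.01. With library-size scaling the median gene changed by 0.42. Of all detected genes 1058 were then lower and 6533 higher, and the members split into 9 lower and 11 higher. The counts of the early step thus depend on the scaling, among members and among all genes. The member split was 15 lower and 5 higher with the length trend removed, against 4265 and 3536 of all genes. The same 2 member counts were found without the 2 libraries that stood apart, against 3615 and 3873 of all genes.

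The largest early falls among the well-counted members were those of gst-26, gst-27 and gst-10. gst-26 was 4.64-fold lower on days 5 to 7 (log2 change -2.21 ± 0.31 SE, adjusted p = 1.22e-06), with samples overlapping those of days 2 to 3. gst-27 was 4.32-fold lower and gst-10 3.79-fold lower, and neither overlapped. gst-4 was 3.70-fold lower, with 3.20 to 14.98 CPM on days 5 to 7, against 18.3 to 36.9 on days 2 to 3, again with no overlap.

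gst-1 was 1.67-fold lower on days 5 to 7 (log2 change -0.74 ± 0.09 SE, adjusted p = 1.66e-07), with a median of 231 CPM, against 369 on days 2 to 3, and it stayed past the threshold with library-size scaling (-0.32, adjusted p = 0.00482). gst-7 was 1.52-fold lower (log2 change -0.61 ± 0.12 SE, adjusted p = 0.000117), a call that ended with library-size scaling (-0.19, adjusted p = 0.189).

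The early step was upward for gst-24, gst-22, gst-20, gst-40 and gst-3. gst-24 had 18.8 to 35.0 CPM with a median of 25.8 on days 5 to 7, against 3.30 to 11.8 with a median of 7.84 on days 2 to 3, and every sample of days 5 to 7 was higher. It was 3.74-fold higher (log2 change 1.90 ± 0.16 SE, adjusted p = 6.12e-10). gst-22 was 2.11-fold higher (log2 change 1.07 ± 0.21 SE, adjusted p = 9.21e-05). gst-20, which lies beside gst-24, was 1.501-fold higher (log2 change 0.59 ± 0.14 SE, adjusted p = 0.00093). Without replicate 2 the count of higher members was 2, gst-22 and gst-24.

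In the late step the direction was down again. On days 11 to 12, 17 members were lower and 1 was higher than on days 5 to 7, against 19.8% lower and 19.7% higher among all detected genes. The median member changed by -0.85 on the log2 scale and the median gene by -0.01. The lower members numbered 11 without replicate 1, 10 without replicate 2 and 12 with the length trend removed, and 17 without the 2 libraries that stood apart. Of all genes, 1475, 1703, 2517 and 2961 were lower in these fits, in that order.

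gst-26 was 4.12-fold lower on days 11 to 12 (log2 change -2.04 ± 0.40 SE, adjusted p = 0.000182), gst-10 3.83-fold lower (-1.94 ± 0.31 SE, adjusted p = 2.17e-05) and gst-27 3.07-fold lower (-1.62 ± 0.32 SE, adjusted p = 0.000245). gst-24 turned down, with 10.9, 8.99, 13.8, 9.51 and 11.9 CPM on days 11 to 12, all below the 18.8 to 35.0 of days 5 to 7. It was 2.33-fold lower (log2 change -1.22 ± 0.17 SE, adjusted p = 4.25e-06). gst-22 and gst-20 were 1.80-fold and 1.74-fold lower, so these 3 genes were higher and then lower. Over all adult days they had the largest negative quadratic coefficients among the well-counted members, and r with gst-24 was 0.83 for gst-22 and 0.68 for gst-20.

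gst-7 was 1.93-fold lower on days 11 to 12 (log2 change -0.95 ± 0.14 SE, adjusted p = 5.63e-06). gst-1 had 196, 197, 199, 223 and 218 CPM on days 11 to 12, against 174 to 300 on days 5 to 7, and did not pass the test (log2 change -0.15 ± 0.10 SE, adjusted p = 0.208), with a positive change of 0.16 once the length trend was removed. The only member higher in the late step was gst-38, 2.09-fold (log2 change 1.06 ± 0.31 SE, adjusted p = 0.00554), and it was not called without replicate 1 or without replicate 3.

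**Figure D5:**
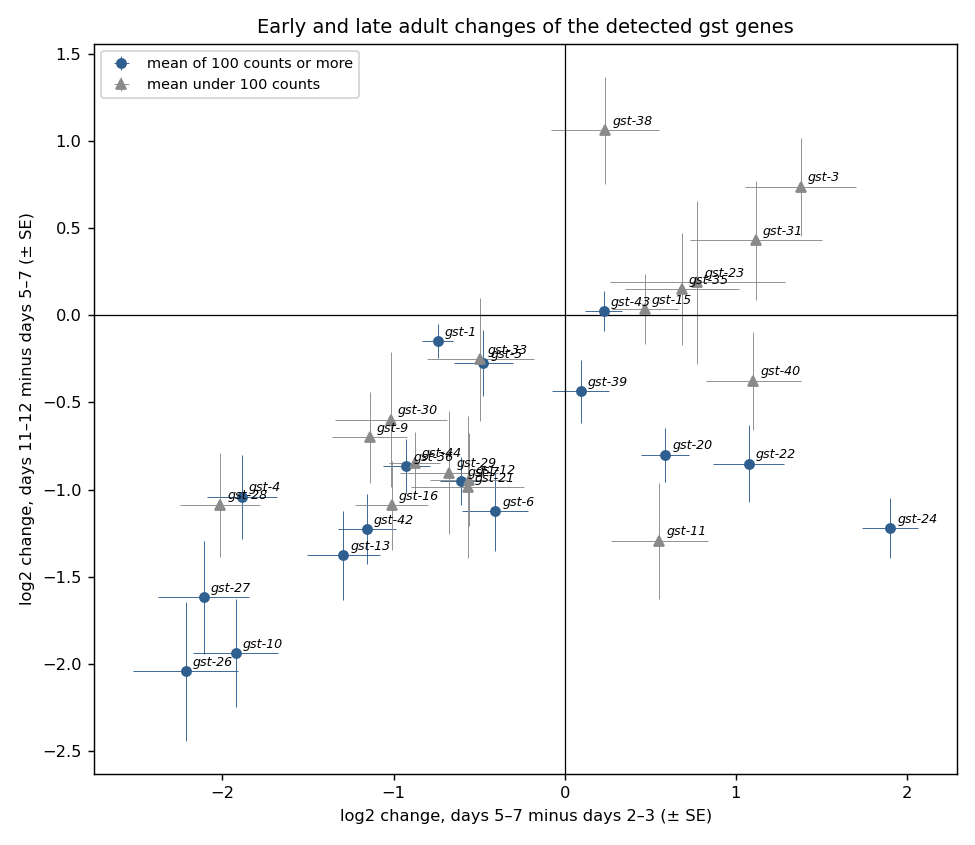
Log2 change of the 33 detected gst genes in the early step (days 5 to 7 minus days 2 to 3, horizontal) and the late step (days 11 to 12 minus days 5 to 7, vertical), as fitted values ± SE, with circles for means of at least 100 counts and triangles for fewer. gst-26, gst-10 and gst-27 lie lowest on the left, gst-24, gst-22 and gst-20 lie low on the right, and gst-38 lies highest; both axes share days 5 to 7.

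Tissue markers moved with adult age too. All 7 intestine markers tested fell and none rose, although elt-2 and elt-7 were not called with library-size scaling. elt-7 was also not called with the length trend removed, without replicate 1, without replicate 2 or without day 12. The summed level of the 7 markers was 400 to 862 CPM on days 2 to 3, 189 to 407 on days 5 to 7 and 125 to 202 on days 11 to 12. In the same windows the summed gst level was 965 to 1268 on days 2 to 3, 472 to 941 on days 5 to 7 and 415 to 455 on days 11 to 12. The muscle list summed to 192 to 1632, 46.1 to 264 and 103 to 189 in these windows. The hypodermis list summed to 283 to 2335, 134 to 486 and 124 to 142. Of its 4 markers tested, col-19 fell, dpy-7 rose, and lin-26 and elt-3 did not pass the linear test. The neuron list summed to 297 to 491, 356 to 478 and 283 to 333. Of its 5 markers, snb-1 and unc-119 fell, whereas rgef-1, ric-19 and unc-64 rose. Such sums follow the most abundant genes, so they do not give the course of each marker. The 6 oocyte and germline markers summed to 4454 to 6506 on days 2 to 3, 1750 to 4481 on days 5 to 7 and 3559 to 4332 on days 11 to 12. In the early step 5 of these 6 were lower and none higher, in the late step 1 was higher and none lower, and 2 fell over all adult days. Of the 6 embryo markers 4 were tested, of which tbx-37 and tbx-38 fell, end-1 rose and end-3 did not pass the test. The embryo list summed to 2.65 to 8.35 on days 11 to 12, against 11.8 to 43.7 on days 2 to 3. The part of these markers in the gst result was not tested.

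The rest of the glutathione system gives the setting. Of 52 tested genes in 8 lists of the pathway and its regulators, 19 fell (36.5%) and 22 rose (42.3%) with adult age by the same test, shares near the 33.9% falling and 36.9% rising among all detected genes. With library-size scaling 15 fell and 26 rose, against 3035 and 7047 of all genes. With the length trend removed 19 fell and 16 rose, against 4832 and 4696 of all genes. Among the synthesis genes, gcs-1, which encodes the rate-limiting enzyme of glutathione synthesis, rose by 0.07 log2 per day (± 0.01 SE, adjusted p = 1.25e-06), while gss-1, which completes the molecule, fell by 0.07 log2 per day (± 0.01 SE, adjusted p = 2.4e-09). In all 3 of 6 fell and 2 rose. In the list of reduction and NADPH supply 2 of 6 fell, among them the glutathione reductase gene gsr-1 (by 0.12 log2 per day, ± 0.01 SE, adjusted p = 2.05e-12), and 2 rose, the thioredoxin reductase genes trxr-1 and trxr-2.

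Enzymes of the other lists moved in both directions. Of the 4 tested transferases of other symbols, gsto-1 of the omega class fell by 0.28 log2 per day (± 0.03 SE, adjusted p = 1.33e-09) and gstk-1 of the kappa class by 0.19 (± 0.02 SE, adjusted p = 2.94e-11). None of the 4 rose, except that gstk-2 was called rising with library-size scaling and with the length trend removed. Of the 8 glutathione peroxidases, 4 fell and 2 rose. gpx-5 had 3.35 to 7.29 CPM on days 11 to 12, against 29.1 to 103 on days 2 to 3. Of the 5 glutaredoxins 4 fell and none rose, with 2 falling under library-size scaling and with the length trend removed. Of the 3 genes in the glyoxalase list djr-1.1 fell and djr-1.2 rose. The third, glod-4, did not pass the test (0.02 log2 per day, adjusted p = 0.208), but was called rising with library-size scaling and with the length trend removed.

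The counts of the export pumps and of the regulators moved with the treatment of length. Of the 8 mrp genes, whose products carry conjugates out of cells, 5 rose and only mrp-3 fell, whereas with the length trend removed mrp-2 alone rose and mrp-3, mrp-4 and mrp-7 fell. mrp-2 rose by 0.44 log2 per day (± 0.03 SE, adjusted p = 9.24e-13), with 29.4 to 59.8 CPM on days 11 to 12, against 2.07 to 5.20 on days 2 to 3, and no overlap. Of the 12 regulators 10 rose, a count that was 6 with the length trend removed. skn-1 itself rose by 0.09 log2 per day (± 0.02 SE, adjusted p = 1.6e-05) and wdr-23, whose product represses SKN-1, also by 0.09 (± 0.01 SE, adjusted p = 3.49e-11), and of these 2 only skn-1 was called rising with the length trend removed. The 2 that fell, elt-2 and elt-7, are the intestinal GATA factors and are also in the intestine list, where the fits that did not call them are given.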

How the data were processed

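The authors deposited raw read counts per gene for each of 34 whole-animal samples, without normalization. Per the labels, their processing notes name STAR 2.7.3a, featureCounts and the WBcel235 build; strand handling, multiple mapping and batches are not given in the sources used here. A row named transgene, at most 0.00124% of a sample, was left out. Samples were grouped by labelled day. The replicate numbers of 1 day 12 sample differ between label and column, so only its day was used.

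Counts were scaled by TMM and tested with edgeR 4.0.16 (limma 3.58.1, R 4.3.3) by quasi-likelihood: a third-degree orthogonal polynomial of age over 31 samples, contrasts of daily means in a fit with 1 mean per day, and day 2 against day 1 in 6 samples (genes with at least 5 counts in at least 3 samples). P-values were adjusted by Benjamini-Hochberg over all genes tested. Scripts were tested on simulated data. DESeq2 1.42.0, other filters, scalings, a length trend, a replicate block and omitted samples were alternatives. Same-numbered replicates were checked for pairing by correlating the deviations of samples from their day means. Over days 2 to 12, r was -0.452 to 0.55 for same numbers (median 0.0162, over 0.1 in 36 of 136 pairs). For other numbers it was -0.579 to 0.59 (median -0.00206, over 0.1 in 58 of 271 pairs). Neighbouring days of the same number had a median of 0.0709, with 11 of 26 pairs over 0.1. The labels tie no number to a round, so the numbers were not taken to pair the samples, and a replicate block was an alternative only. The study modelled sequencing batch, which was not fitted here because the labels do not give it. Positions and lengths come from Ensembl release 115, and figures from Python 3.11.15 with matplotlib 3.10.9.

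Genes described were, among members past the threshold with at least 100 counts, the 4 with the largest age coefficient in each direction and the 3 with the largest change in each direction of each other contrast (on day 1 or 2, in the higher day), the 3 highest per kilobase, and gst-1, gst-4, gst-5, gst-7, gst-10, gst-38, gst-42, gst-43 and gst-44. Others, such as gst-3, gst-9 and gst-30, were added after their values were seen. Members and lists were chosen with earlier results of these data known. The intestine list was used without opt-2, which was not matched. Beside the calls given in the report for adult age, 3 of 4 muscle markers fell with age and 2 of 3 sperm markers tested rose. Grouping by protein likeness and promoter motifs were not analysed here. P-values measure the spread between these plates of animals, and the precision given by depth covers counting error only, since PCR copies may be among the reads.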

Additional observations from a re-analysis of the deposited data

How the results depend on the processing

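With edgeR at its stated settings 30 members changed with age, a count that was 19 with at least 10 counts in every sample, since 21 members were then tested, and 23 to 28 without 1 replicate number. The 23 falling members were 17 to 21 without 1 replicate number. The 5 rising members were 1 with at least 10 counts, 9 with library-size scaling, 9 with the length trend removed, 3 without day 2 and 3 to 5 without 1 replicate number. For the early step, the 5 higher members became 11 with library-size scaling and 2 to 5 without 1 replicate number, and the 14 lower became 9 with library-size scaling. For the late step, the 1 higher member became 2 at an adjusted p under 0.05, 2 with the length trend removed, 2 without the 2 libraries that stood apart (an alternative chosen after seeing the data), 0 with a replicate block and 0 to 1 without 1 replicate number; the 17 lower became 10 to 13 without 1 replicate number. For day 2 against day 1, the 5 higher members became 9 at an adjusted p under 0.05, 8 with DESeq2, 2 when 75% of the 6 samples had to reach 5 counts, 3 with library-size scaling, 3 with a replicate block and 2 to 5 without 1 sample. The counts of all genes also moved between these fits, as given above for the scaling and the length trend. The cause was not tested.

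Among the named genes, 865 alternative values kept their direction and side of the threshold, 76 lost the call, 22 gained it and 13 reversed. Reversals were gst-1 in the late step with the length trend removed (0.16), gst-5 there (0.0489), gst-35 in the late step with the replicate block (-0.50), gst-38 in the early step without 1 replicate number (-0.0416 to 0.643) and gst-43 in the late step with library-size scaling (-0.0134), no filter (-0.0346), the replicate block (-0.0314) and without 1 replicate number (-0.0577 to 0.111). The age coefficient of gst-22 reversed with library-size scaling (0.0243), the length trend removed (0.0241), without 1 replicate number (-0.0396 to 0.0022) and without the 2 libraries that stood apart (0.00222). That of gst-24 was -0.0922 without day 2 (adjusted p = 6.54e-05), its lowest day. With the replicate block 29 members changed, 5 rose and 22 fell with age, 5 were higher and 13 lower in the early step, 12 were lower in the late step and 18 were lower on day 2. Every result on members with few counts is limited by depth.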
